A study of Mus musculus with 2 samples.

Results

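The regions described here are the 10 kb windows of the mouse genome whose RNA coverage was 2- to 4-fold higher in 2C::tomato-positive than in 2C::tomato-negative embryonic stem (ES) cells. A window belongs to the set if it held at least 50 read equivalents in both libraries together and if its positive to negative ratio was at least 2 and below 4. A read equivalent is the summed depth over the bases of the window divided by 72, the length of an alignment. Each ratio compares shares of the library total, with 0.5 added to both counts. The mitochondrial chromosome, chromosomes X and Y and unplaced sequence were left out. Of 35655 windows with enough coverage on the 19 autosomes, 515 met the rule, which is 1.44% of those tested. The ratio chose the windows, so members were chosen by the measured coverage ratio itself and it is given below as a description of the set and was not tested.

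Both populations came from ES cells of mixed strain background with floxed alleles of Kdm1a (Kdm1a FL/FL), the gene of the histone demethylase LSD1, and with a CreERT transgene, whose recombinase acts only once its ligand is given. Whether the recombinase was activated is not given in the sources used here. The cells of both groups were maintained on gelatin under 150 ug/ml hygromycin in ES-KOSR media and were sorted by flow cytometry on the reporter, and mRNA was sequenced from 1 library of positive and 1 library of negative cells. Each difference therefore has neither a replicate check nor a test, and every value compares these libraries rather than the conditions. All intervals are 95% exact conditional binomial (Clopper-Pearson) intervals, and they cover counting error only.

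The 2C::tomato reporter is driven by the long terminal repeat of the mouse endogenous retrovirus MuERV-L. That repeat is transcribed at the 2-cell stage of the embryo and in a small, changing share of ES cells, which are called 2-cell-like cells. Long terminal repeats can act as promoters, so a transcript can start in a repeat and run into neighbouring sequence. LSD1 removes methyl groups from histone H3 and is one of the factors known to repress this class of repeats. A bulk window ratio cannot tell apart fewer cells that transcribe a region and less RNA from that region per cell.

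The positive library held 37059813 alignments and covered 87.7 Mb of the build mm9, and the negative library held 33833215 alignments over 72.6 Mb. The tracks hold only ungapped alignments, so a spliced gene appears in them as separate covered blocks, and strand is not kept. Reads that match several places are listed at each of them, and such repeated stretches held 25.5% of the positive and 25.7% of the negative alignments. Genes were not assigned to windows here, because the annotation at hand is of another build than the files. For that reason the levels of cell type markers and of Kdm1a were not analysed here.

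The set was weighted towards the lower limit of its rule and towards shallow windows. The 515 windows together held 76833 positive and 28483 negative read equivalents, a pooled ratio of 2.46. Their median ratio was 2.33, with quartiles of 2.13 and 2.67, and 337 windows were below 2.5, 101 lay from 2.5 to below 3 and 77 were at 3 or more. The positive library ranged from 35 to 8508 read equivalents per window with a median of 56.8, and the negative library from 9 to 3533 with a median of 22. The rule leaves no member without coverage in the negative library, since such a window would be past the upper limit. The most unequal end of the comparison was therefore not in this set: 311 other windows, 0.872% of those tested, were at least 4-fold higher, with a median ratio of 38.4, and in all 826 (2.32%) were at least 2-fold higher. In the other direction, 128 windows, 0.359%, were 2- to 4-fold lower in the positive library, and none was at least 4-fold lower.

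Counting error alone placed most members less firmly than their ratio. The interval of every one of the 515 lay above 1, which follows from the lower limit and the minimum depth. Close to both, chr2:174970001-174980000 with 36 against 16 already had an interval of 1.11 to 3.96. The interval included 2 for 462 of the members and 4 for 268. It lay wholly at or above 2 for 53 members and wholly inside 2 to 4 for 17. Below the lower limit, 1657 windows had a ratio from 1.5 to below 2, and the intervals of 1532 of these also included 2. The set is thus a slice of a continuous range. Just above the lower limit, chr2:172250001-172260000 held 51 positive and 23 negative read equivalents (ratio 2.00, interval 1.21 to 3.47) and chr17:17640001-17650000 held 378 and 172 (2.01, 1.67 to 2.42). Just below it, chr16:64800001-64810000 held 40 and 18 and chr11:107500001-107510000 held 86 and 39, with ratios that also round to 2.00. At the upper limit, chr8:80220001-80230000 and chr14:63220001-63230000 were just inside, with 41 against 9 each (3.99, 1.99 to 9.73). Just outside it lay chr11:101520001-101530000 with 269 against 61 (4.0, 3.04 to 5.41) and chr1:16580001-16590000 with 73.0 against 16.3 (4.01).

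**Figure D1:**
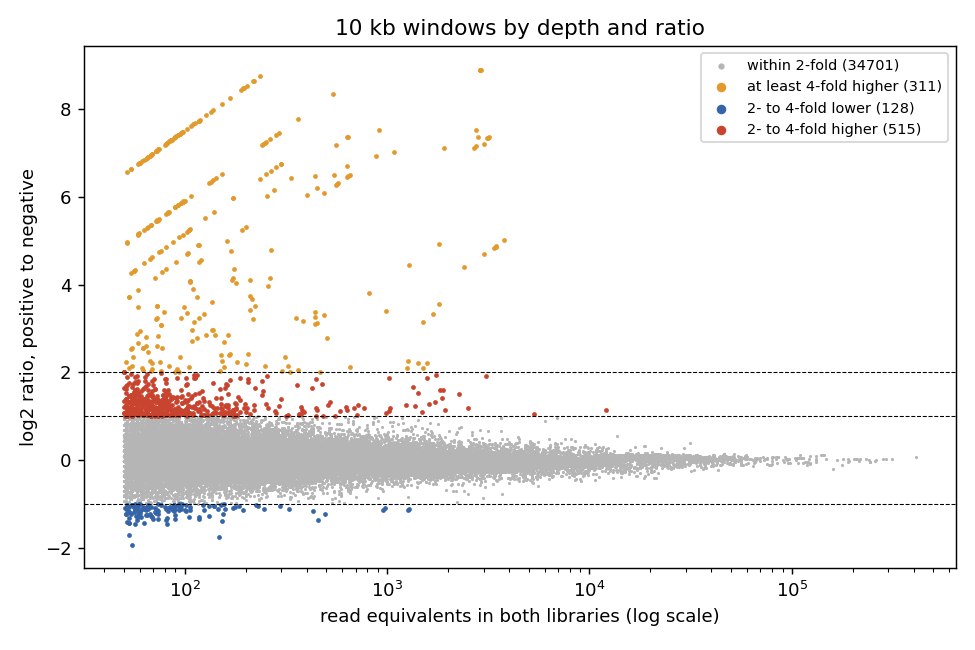
Each point is a 10 kb window, with its read equivalents in both libraries on a log scale on the x axis and its log2 ratio of positive to negative on the y axis; colours mark the 515 members, the 311 windows at least 4-fold higher, the 128 that were 2- to 4-fold lower and the remaining windows. The members form a band above the dense centre that thins with depth, and the side below the centre is emptier at every depth.

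Shallow windows made up most of the set, and the excess of higher over lower windows was present at every depth. Among windows with 50 to below 100 read equivalents, 343 of 7051 were members (4.86%) and 91 were 2- to 4-fold lower (1.29%). The share of members was 1.58% at 100 to below 200, 0.435% at 200 to below 500 and 0.216% at 500 to below 1000. At 1000 or more it was 0.233%, with 21 members and 2 lower windows among 9007. The median ratio of all tested windows moved the same way, from 1.09 in the shallowest windows to 0.982 in the deepest. Thinly covered sequence was thus slightly higher in the positive library across the board, and the part of this shift in the membership of single shallow windows was not tested. Blocks of coverage made of at most 2 alignments held 1.1% of the positive and 0.737% of the negative alignments on the chromosomes used, which is a difference of the same direction.

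The shape of coverage, which the rule did not use, also differed between members and other windows. The directions in shallow and deep windows were opposite, but the deep members were few and not all independent. A block is a stretch covered without a gap in at least 1 library, cut where it crosses a window border. In windows with 50 to below 100 read equivalents, members were split into a median of 12 blocks, against 8 for all tested windows, and their largest block held a median of 41.2% of the read equivalents, against 54.1%. Members of this depth also covered more of their 10 kb, with a median of 13.97% against 9.81%. In windows with 1000 or more read equivalents the order was turned: the 21 members had a median of 15 blocks against 16, and their largest block held 84.1% against 71.3%. Many of these 21 lay in the chromosome 12 cluster described below, whose windows share repeated stretches. This comparison therefore describes that locus in large part, and the 84.1% is the value of its window chr12:89110001-89120000. At 500 to below 1000, the 11 members likewise had 11 blocks against 15 and 74.4% against 61.8%. Among windows with fewer than 200 read equivalents whose largest block held less than 20%, 81 of 840 were members (9.64%) and 4 were lower (0.476%). Where 1 block held at least 80%, 80 of 3615 were members (2.21%) and 39 were lower (1.08%). The imbalance between higher and lower windows was therefore widest where coverage was spread in many small pieces along the window, and narrower where it sat in 1 block. Windows of the first kind had a median ratio of 1.19 as a whole, so the shift was not confined to members.

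**Figure D2:**
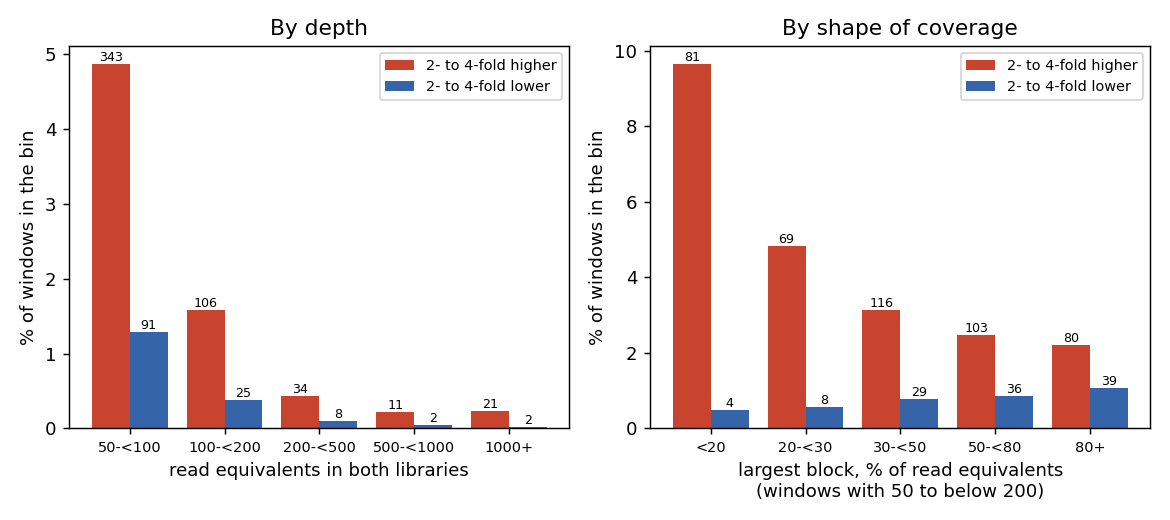
Bars give the percentage of tested windows that were 2- to 4-fold higher or 2- to 4-fold lower in the positive library, with the number of windows printed above each bar, by read equivalents (left) and, for windows with fewer than 200, by the share in the largest block (right). Members were 4.86% of the shallowest windows and 9.64% of those with the most scattered coverage, and the higher windows outnumber the lower ones in every bin.

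Members were somewhat more often close to the strongly higher regions than tested windows in general. Windows at least 4-fold higher are clustered, and 70.7% of them had another such window within 100 kb. Of the members, 39 (7.57%) lay within 100 kb of a window at least 4-fold higher, against 2.10% of all tested windows, and 15 (2.91%) were directly adjacent to one, against 0.558%. Within 1 Mb there were 72 members (14.0%), against 11.2% of all tested windows, and 443 (86.0%) were farther away than that, near the 88.8% of all tested windows. Flanks of strongly higher windows were thus a minor share of the set. The 39 include the 13 members of a chromosome 12 cluster and the 3 of a chromosome 11 run, both described below. Most of these share repeated stretches with nearby windows at least 4-fold higher, so they are not independent of them. With repeated stretches left out, 25 of 502 windows 2- to 4-fold higher (4.98%) lay within 100 kb. Only 1 of the 128 lower windows (0.781%) lay within 100 kb of a window at least 4-fold higher.

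The windows next to members were themselves slightly higher in the positive library. With windows that the rule calls 2-fold higher or lower left out, windows adjacent to members had a median ratio of 1.22 (quartiles 1.01 and 1.58, 557 windows), and 76.5% of them were above 1. Windows adjacent to any tested window had a median of 1.02, with 54.5% above 1, and next to tested windows with fewer than 200 read equivalents the median was 1.04. At 20 kb from members the median was 1.15, at 50 kb 1.07 and at 100 kb 1.05, near the 1.03 of tested windows at that distance. For members more than 1 Mb from any window at least 4-fold higher the adjacent median was 1.21. The neighbours of members had a median of 120 read equivalents, and those of shallow tested windows 143. Pooled over their read equivalents, which gives weight to deep windows, the neighbours of members came to 1.07, so the shift lay mainly in the shallower ones.

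**Figure D3:**
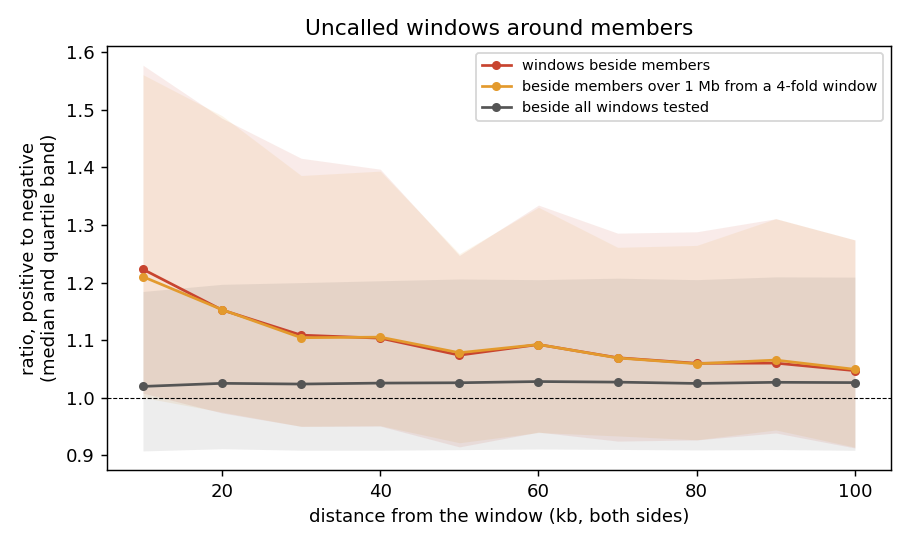
Lines give the median ratio of windows not called by the rule, with at least 20 read equivalents, by distance in kb on either side of all members, of members more than 1 Mb from a window at least 4-fold higher and of all tested windows, and bands give the quartiles. The line for members starts at 1.22 beside the window and comes down to 1.05 at 100 kb, while the line for tested windows stays between 1.02 and 1.03.

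Members were scattered singly over all 19 autosomes. Joined where directly adjacent, they made 467 runs, of which 428 were single windows, 31 were pairs, 7 were runs of 3 and 1 was a run of 4. Joined over gaps of up to 100 kb they made 423 loci, 17 of them with at least 3 members. Chromosome 5 had the most members, 54 of 2458 tested windows (2.20%), followed by chromosome 7 with 44 (1.72%) and chromosome 1 with 42 (1.88%). Chromosome 10 had the lowest share, 15 of 1741 (0.862%). Chromosome 5 also carried 58 windows at least 4-fold higher. Chromosome 14, with 10 such windows, had a similar share of members (2.12%), so the shares did not simply follow those counts.

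The only run of 4 members formed the flank of a strongly higher region on chromosome 1. From chr1:34210001 to 34250000, 4 consecutive windows were at least 4-fold higher, with ratios of 4.81, 5.32, 6.85 and 4.04. The run began in the next window, where chr1:34250001-34260000 held 186 positive and 56.7 negative read equivalents (2.98, interval 2.20 to 4.08). The following windows held 80 against 22 (3.27), 52 against 18 (2.59) and 385 against 140 (2.50), and the run as a whole came to 703 against 237 (2.71, 2.33 to 3.15). No repeated stretch was found in this run. Beyond a window with too little coverage, 2 more members followed at 2.35 and 2.41. The next windows were at 1.91, 1.56 and 1.46, and the last member of the locus, at chr1:34350001, was at 2.02. The window after it was at 1.61, and the next tested window, at chr1:34420001, was at 0.817 (0.565 to 1.18). The intervals of most neighbouring windows overlap. That the strongly higher windows had higher ratios than the members follows from the limits that define both. The limits did not use position, and here the strongly higher windows and the run lay side by side. Within the run the higher coverage was not limited to 1 place: in the first window a 226-base and a 209-base block each held 22 against 2, while a 547-base block held 67 against 31 (1.97, 1.27 to 3.13). The windows of this locus outside the run were chosen with their values known.

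Windows at least 4-fold higher also lay between members on chromosome 5, in a group of windows chosen after their values were seen. Here chr5:123110001-123120000 held 63.5 against 12 (4.67, 2.56 to 9.76) and the window after it 58 against 11 (4.64, 2.50 to 10.2). These intervals overlap those of the members beside them, so counting error does not separate these windows from the members. On one side lay members at 2.46 (129 against 47.7) and 3.13 (122 against 35.3), and on the other a member with 520 against 199 (2.38, 2.02 to 2.82). The window directly after that, chr5:123140001-123150000, held 1793 against 1644 (0.996, 0.931 to 1.07). On that side the ratio went from 2.38 to 1 from one window to the next.

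The deepest member lay in a pair on chromosome 19, far from any window at least 4-fold higher. The window chr19:9080001-9090000 held 8508 positive and 3533 negative read equivalents (2.20, 2.11 to 2.29), more than any other member, and it was covered from end to end as 1 block. The window before it, also a member, held 986 against 384 (2.34, 2.08 to 2.64) and shared repeated stretches with it, and the window after it 1631 against 1002 (1.49, 1.37 to 1.61). Windows at chr19:9040001 and chr19:9050001 were at 1.01 and 0.967. The higher coverage was thus a continuous transcribed stretch with flat sequence within 50 kb on one side. Counted by distinct start positions the ratio of the deepest window was 1.57 (3588 against 1971 positions), below the limit of the set. A position counts once however many alignments start at it, so position counts are bounded in deeply covered windows. Repeated stretches held 43.8% of its alignments.

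On chromosome 4 the window chr4:41040001-41050000 held 1396 against 476 (2.68, 2.41 to 2.98), and none of its alignments lay in repeated stretches. Of the 5 blocks with at least 20 read equivalents among its 20, 4 were higher by a like amount. The largest, of 1037 bases, held 947 against 318 (2.72, 2.39 to 3.10). Blocks of 168, 313 and 222 bases were at 3.20, 2.93 and 3.14, and the remaining one, of 269 bases and further along the window, held 84 against 51 (1.50, 1.05 to 2.17). Counted by distinct start positions the window was at 1.74 (597 against 296), below the limit of 2. The higher coverage was not seen at chr4:41060001-41070000, which held 4022 against 3866 (0.950). The 50 kb centred on the member held 5446 against 4356 (1.14), nearly all of it in the member and that window. The 1.14 is therefore not a separate observation, and the windows directly beside the member held too little coverage to place the edge.

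The window chr1:182860001-182870000 held 1360 against 564 (2.20, 1.99 to 2.43), with its largest blocks at 2.29 (655 against 261) and 2.19 (454 against 189). It shared repeated stretches with chr1:182820001-182830000, also a member, which held 1043 against 444 (2.14). A window between these, chr1:182830001-182840000, held 1383 against 1090 (1.16, 1.07 to 1.26). Coverage between the pair was thus closer to equal than in either member.

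The named runs away from any strongly higher window had lower pooled ratios than the chromosome 1 run. On chromosome 15, chr15:12290001-12320000 held 318 against 132, 490 against 220 and 95 against 42 in its windows (2.19, 2.03 and 2.05), together 903 against 394 (2.09, 1.86 to 2.36). No repeated stretch was found in it. The 4 windows before it were at 1.01, 0.848, 1.05 and 0.855, so this edge was sharp. On chromosome 5, chr5:8820001-8850000 held 146 against 64, 43 against 14 and 84 against 35, together 273 against 113 (2.21, 1.77 to 2.77). Repeated stretches held 53.8% of the alignments at chr5:8820001 and 61.3% at chr5:8840001. With them left out these windows held 72 against 25 (2.59) and 31 against 15 (1.85). Both shared stretches with windows below the lower limit, such as chr5:8700001 at 1.98 and chr5:8730001 at 1.96. The run is therefore not independent of those windows. The nearest window at least 4-fold higher was more than 1 Mb from both runs.

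**Figure D4:**
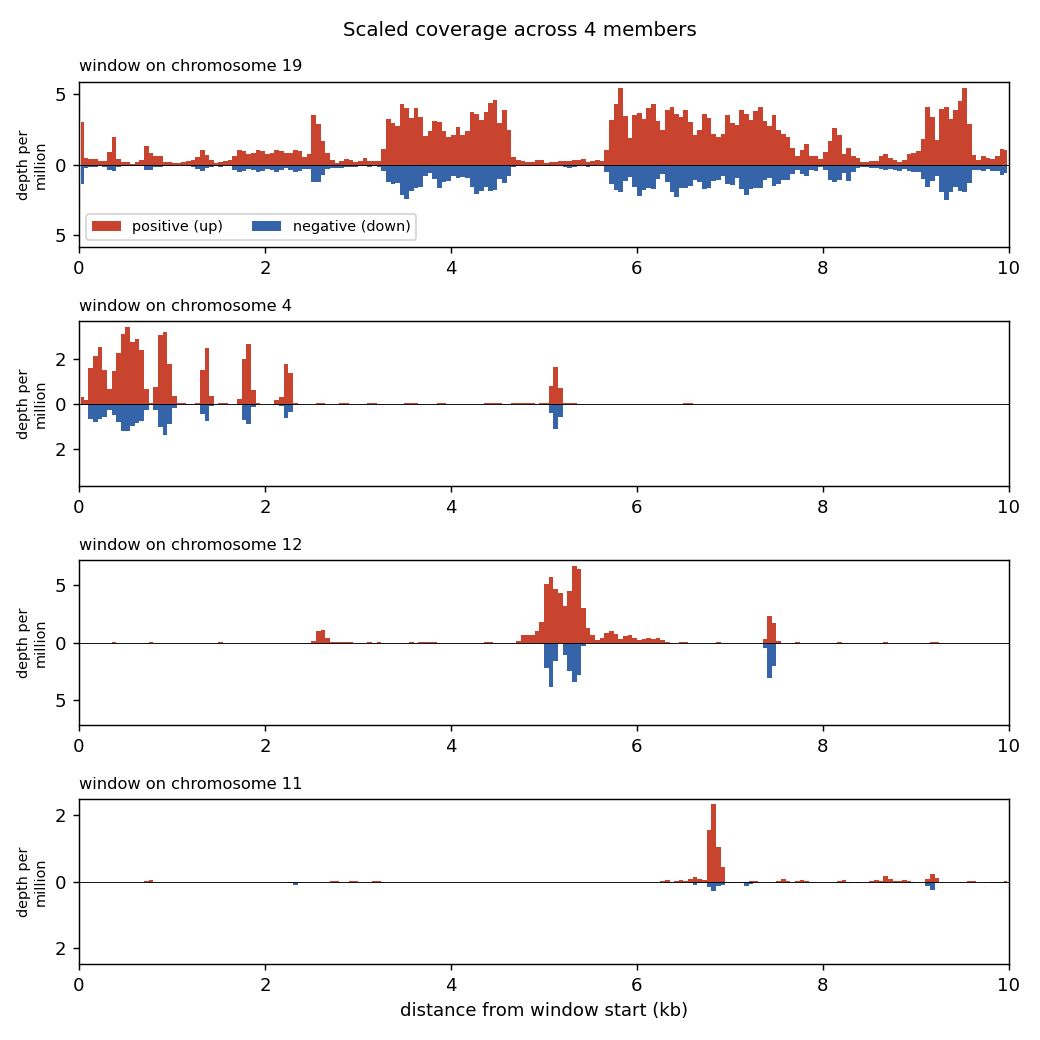
Depth scaled to the library total is drawn upward for the positive and downward for the negative library along the 10 kb (x axis, distance from the window start in kb) of the deepest member on chromosome 19, the member at chr4:41040001, the chromosome 12 member at chr12:89110001 and the first window of the chromosome 11 run. On chromosomes 19 and 4 most covered stretches are higher in the positive library, whereas on chromosome 12 a higher block stands beside one that is slightly lower, and on chromosome 11 nearly all of the difference is in 1 short block.

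A cluster on chromosome 12 carried a large part of the set's reads. Between chr12:88850001 and 89570000, 43 windows were tested, of which 13 were members, 12 were at least 4-fold higher and 18 were within 2-fold. The 13 members held 14891 positive and 4344 negative read equivalents (3.13), which is 19.4% of the positive read equivalents of all 515, and single windows ranged from 2.39 to 3.81. They are tied to one another, since 12 of the 13 share repeated stretches, and 7.22% to 85.9% of the alignments of each lay in such stretches. The windows of this span are therefore not independent measurements. Those outside the rule for named windows were added after their values were seen.

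Within these windows single blocks had very different ratios. Of 33 blocks with at least 20 read equivalents, 8 had no alignment in the negative library, with 27 to 100 in the positive one. The one with 100 is cut by a window border, and its other part, in the window before, held 1064 against 333. A further 9 blocks had a ratio between 0.791 and 1.16, and the other 16 were above 2. In chr12:89110001-89120000, which held 1717 against 550 (2.85, 2.59 to 3.14), a 1642-base block held 1490 against 417 (3.26, 2.92 to 3.64). In the same window a 467-base block held 78 against 0, at least 23.7-fold higher when 3 counts per block stand for 0, and a 167-base block held 116 against 133 (0.796, 0.615 to 1.03). The large block held 84.1% of the read equivalents of this window, and without it the ratio was 1.56.

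Other windows of the cluster held some of these elements in other proportions. In chr12:89130001-89140000 (1403 against 336, 3.81) an 866-base block held 1182 against 334 (3.23), a 724-base block beside it 105 against 2 (47.9, 12.9 to 401) and a 179-base block 80 against 0. In chr12:89250001-89260000 (2480 against 598, 3.78, 3.46 to 4.15), the deepest member of the cluster, blocks of 1237 and 1089 bases were at 3.56 and 3.80, and blocks of 375 and 502 bases held 27 and 30 against 0. The window chr12:89480001-89490000 (1450 against 436, 3.03) had 98.7% of its read equivalents in 1 block of 1593 bases. Among blocks with any negative alignment, cut at window borders, the highest ratio in the cluster was in chr12:89500001-89510000 (whole window 2.39). There an 893-base block held 234 against 1.68 (127, 29.2 to 887), and the 167-base block held 116 against 133 as it did at chr12:89110001. The window border cuts the 893-base block, and its other part, in the next member, held 1133 against 293 (3.53, 3.10 to 4.03). A large block near 3 was present in most of the 13, but not within the borders of this window. It was also absent from chr12:89270001-89280000, whose largest blocks held 91 against 1 (83.1, 14.5 to 3317) and 28 against 29 (0.881).

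Over the 13 windows together, the repeated stretches had a lower ratio than the rest. With repeated stretches left out, they held 5705 against 1248 (4.16), and 10 of the 13 were at 4 or more. The window at chr12:89480001 then held 264 against 2 (96.4), and those at chr12:89110001, 89130001 and 89250001 were at 7.05, 6.14 and 5.39. The windows at chr12:88850001 and 89560001 stayed inside the limits at 3.29 and 3.57. At chr12:89550001 the value went down, from 2.44 to 2.18 (908 against 379), so its repeated stretches had the higher ratio. The blocks near 1 in chr12:89150001-89160000 (117 against 135, 0.791) and chr12:89550001-89560000 (94 against 104, 0.825) have counterparts in windows within 2-fold. The first block stood with the same counts, 117 against 135, in chr12:89390001-89400000 of the same cluster, a window with 168 against 147 (1.04, 0.831 to 1.31). Both members also shared a few stretches with chr4:129570001-129580000, with 6522 against 6004 (0.992, 0.957 to 1.03). Reads listed at every matching place add the same counts to each copy, and from which copy these reads came was not tested.

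**Figure D5:**
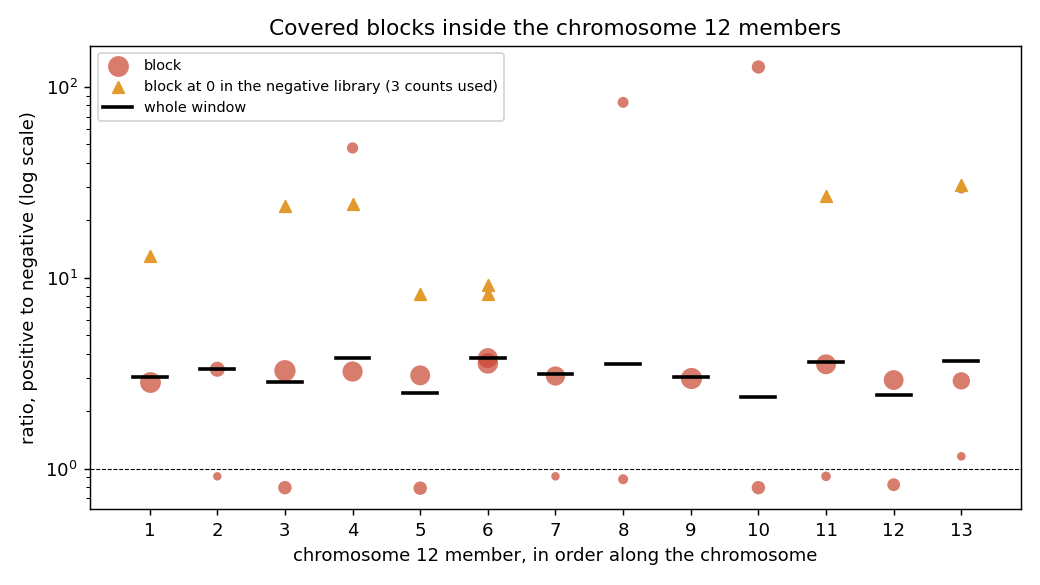
For each of the 13 chromosome 12 members, numbered along the chromosome, points give the ratio of each block with at least 20 read equivalents on a log scale, with larger points for deeper blocks; triangles are blocks without negative alignments, drawn with 3 counts in place of 0, and short lines are the whole-window ratios. The whole-window lines lie between 2.39 and 3.81 while blocks run from 0.791 to 127. Blocks are cut at window borders, and the block at 127 and the highest triangle are parts of blocks cut in this way.

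In the deep members in repeated sequence at chr2:83810001 and chr12:114010001, the deepest blocks had ratios from 1.93 to 2.49. This was not general, since a 987-base block on chromosome 3, described below, was at 2.96. The window chr2:83810001-83820000 held 3676 against 1624 (2.07, 1.95 to 2.19), with 99.2% of its alignments in repeated stretches. Blocks with the same counts recur along this part of the chromosome: a 3048-base block with 2461 against 1167 (1.93, 1.79 to 2.07) was found at chr2:83801462, 83813082 and 83824702. The windows on either side were at 1.93 and 1.85, so the stretch as a whole was near 2 and this window passed the limit narrowly. The few alignments outside repeated stretches were 44 against 0, at least 13.3-fold higher when 3 counts per window stand for 0. Another member, chr2:77760001-77770000 (489 against 195, 2.29, 1.94 to 2.72), shared stretches with it and was added after its values were seen. On chromosome 12, outside the cluster, chr12:114010001-114020000 held 1800 against 724 (2.27, 2.08 to 2.48) over 92.0% of its bases. Its largest blocks, of 3771 and 2015 bases, were at 2.33 and 2.24 and hold short stretches that recur at up to 18 places. A 385-base block there held 21 against 0. The adjacent member held 892 against 344 (2.37). With repeated stretches left out the first of these windows held 181 against 68 (2.41), a ratio inside its interval with them.

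In the run on chromosome 11 most of the difference lay in a short repeated element. The windows of chr11:87250001-87280000 held 192 against 50 (3.48, 2.56 to 4.89), 270 against 107 (2.30, 1.84 to 2.91) and 205 against 49 (3.79, 2.78 to 5.33), together 667 against 206 (2.96, 2.52 to 3.47). Each had 1 block, of 400, 402 and 470 bases, with 148 against 20 (6.76, 4.22 to 11.4), 149 against 20 (6.80) and 149 against 21 (6.48). A 424-base block with 148 against 21 stood in the next window, which was itself past the upper limit at 4.56. The start pattern recurred at 4 places, so these blocks list largely the same reads and the run is close to 1 measurement. Without the largest block the 3 windows were at 1.32, 1.27 and 1.81, so the remaining sequence was closer to 1 than the windows as a whole.

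Concentration in 1 block was not the usual form in the set. In 121 members (23.5%) a single block held at least 80% of the excess of positive read equivalents, against 27.7% of windows at least 4-fold higher. The same measure gave 28.9% of all tested windows and 8.59% of lower windows. It divides by the net excess of the window, so where the window as a whole was not higher it does not measure concentration. These last shares are therefore not comparable with that of members. At least 50% of the alignments lay in repeated stretches in 33 members (6.41%), against 8.23% of all tested windows and 21.5% of windows at least 4-fold higher. Repeated stretches are found only where coverage is deep enough to show a distinctive pattern, and members were shallow, with a median of 78.1 read equivalents against 314 for all tested windows. Of the 67 members with any repeated stretch, 41 shared one with another member, 19 with a window at least 4-fold higher, 38 with a window within 2-fold and 1 with a lower window.

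That 1 case joined windows past the limits in opposite directions, and was singled out after its values were seen. The window chr3:144480001-144490000 held 1076 against 338 (2.90, 2.57 to 3.29), nearly all in a 987-base block with 1001 against 309 (2.96) whose parts recur at up to 12 places. It shared stretches with chr3:144390001-144400000, which held 331 against 649 (0.467, 0.407 to 0.532). A further window between them, at chr3:144440001, was also lower, with 31 against 59 (0.483, 0.300 to 0.753), while those at chr3:144460001 and 144490001 were at 1.48 and 1.52. Windows with a stretch in common, within 100 kb of each other, thus differed in direction as a whole. The shared stretches themselves have the same counts in both windows, so the difference lay in the other reads. The blocks of the lower window were mostly below 1 themselves, with 0.477, 0.590 and 0.383 in those of 260, 384 and 657 bases.

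A member that shared sequence with strongly higher windows was chr7:90560001-90570000 (356 against 90, 3.60, 2.86 to 4.60), also chosen after its values were seen. It combined a 1371-base block at 5.05 (199 against 36, 3.52 to 7.41) with a 955-base block at 2.28 (135 against 54, 1.65 to 3.19). The windows it shared stretches with lie elsewhere on chromosome 7, from chr7:58190001, where 399 stood against 42 (8.58, 6.30 to 12.2). On chromosome 17, chr17:6340001-6350000 (412 against 173, 2.17) and chr17:6510001-6520000 (547 against 221, 2.26) shared a 2514-base block that held 403 against 167 and 404 against 167 (2.20 and 2.21). Another copy at chr17:6231714 lay in a window at 1.94, just outside the set.

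Repeated stretches also joined members on different chromosomes, in families singled out after their values were seen. The largest such family had 6 members on 6 chromosomes, with 1518 against 628 in all (2.21), and its deepest window, chr9:57320001-57330000, held 738 against 294 (2.29, 2.00 to 2.63). Others were smaller, such as chr15:101420001-101430000 with 69 against 23 (2.70, 1.69 to 4.60) and chr19:58670001-58680000 with 53 against 19 (2.50, 1.48 to 4.56). The family also shared stretches with windows near 1, such as chr14:43790001-43800000 (0.972, 0.934 to 1.01). A shared stretch is found by equal counts in both libraries, so it has the same ratio at each place. Windows that share it differ through their other reads.

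A second family had 4 members on 4 chromosomes built on 1 short element. The windows chr2:6990001-7000000 and chr15:93060001-93070000 each consisted of a single 235-base block with 60 against 21 (2.61, 1.56 to 4.51), the same counts at both. In chr5:140320001-140330000 a 225-base block held 55 against 19 (2.64, 1.54 to 4.72), and in chr9:78020001-78030000 a 296-base block held 77 against 25 (2.81). The stretch occurs at 5 places, so these 4 members rest in large part on 1 group of reads. Their sum of 297 against 113 (2.40) counts those reads several times.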

How the data were processed

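RNA from the sorted populations was sequenced, with 1 library per group. The authors deposited 1 coverage track per library, a signal that gives the number of alignments over each base without scaling to depth, made from a sorted BAM file per the file headers. Per the submitters' processing notes, Bowtie and the build mm9 were used. The sources used here give no version, settings or filters for it.

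The coverage was decoded into ungapped alignments of 72 bases. The solution was exact, with no start count below 0. Repeated stretches (64 bases with starts at 8 or more positions and at least 20 starts, in either orientation) were found from start patterns that recur, at up to 20 places. Read equivalents were summed in 10 kb windows. Window ratios have 0.5 added to both counts, and ratios of blocks, runs and groups have none. Against a count of 0, 3 counts per block or window were used. The decoding was tested on simulated data. The reads carry no molecular identifiers and are not counts of independent molecules, so intervals are too narrow, more so in repeated stretches.

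The windows, limits and lists were chosen with earlier results of these data known. The rule for named windows took the 10 deepest members, the 5 longest runs, the 5 deepest more than 1 Mb from a window at least 4-fold higher, the 3 deepest with at least 80% of their excess in 1 block, the 2 windows on each side of each limit, and the 3 chromosomes with most members. Alternatives changed the minimum depth, the scaling, the added count, the window starts, the treatment of positions and repeats, and the distance and share limits. No sequence is printed, since the genome at hand is of another build. Python 3.11.15, NumPy 2.4.6, pandas 2.3.3, SciPy 1.17.1, Numba 0.67.0 and Matplotlib 3.10.9 were used.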

Additional observations from a re-analysis of the deposited data

How the results depend on the processing

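The number of members depended on the minimum depth: 1794 windows were 2- to 4-fold higher, 449 were lower and 214 lay within 100 kb of a window at least 4-fold higher with a minimum of 20 read equivalents, and 66, 12 and 19 with a minimum of 200, against 515, 128 and 39 as reported. Counting each distinct start position once gave 363 higher windows, of which 278 were among the 515, and 24 lower ones. Adding 5 to both counts gave 367 and 81. Leaving out repeated stretches kept 469 of the 515 and left 25 near a window at least 4-fold higher. A scaling chosen after seeing the data, by the median ratio of windows of like depth and shape (0.976 to 1.24 over 25 bins), gave 363 higher windows, 350 of them among the 515, and 196 lower ones. The count was lowest when the interval had to lie wholly inside 2 to 4, with 17 members. With distances of 10 kb and 1 Mb, 15 and 72 members were near a window at least 4-fold higher. With 50% or 95% of the excess in 1 block in place of 80%, 246 or 56 members qualified, and with at least 90% or any of the alignments in repeated stretches, 6 or 67. The higher count stayed within 1.5 times under distinct start positions, 5 added to both counts, the scaling by depth and shape, and repeated stretches left out (502). It did so too under median-ratio scaling (495) and windows shifted by 5 kb (557). For the 25 named windows, 99 recomputed values included 45 outside the interval reported, 21 below 2 and none on the other side of 1, and the only block of the chromosome 19 window could not be left out. No paired analysis was possible because a group is 1 library, and no replicate could be left out for the same reason. Depth limits the placing of single windows: 343 of the 515 had fewer than 100 read equivalents.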
